A study of Mus musculus with 6 samples.

Results

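The genes described here are 42 neighbours on distal mouse chromosome 2, from Ncoa3 to Pmepa1, in a region matched by its label to the breast cancer amplicon at human 20q13. They were taken by gene symbol, and 41 of the 42 were found among the 55385 genes of each library. Bcas4 was not found under that symbol. The list was proposed with the levels of DMHCA library 2 in view, so the levels of its members in the 6 libraries chose them and are given below as a description, without a test. The match to the human region was taken from the label and was not examined with these data.

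RNA came from female NeuT/ATTAC mice, and 3 libraries were labelled Control and 3 DMHCA. Both groups carried a constitutively active rat ErbB2 driven by the MMTV promoter, which is active in mammary epithelium, and an FKBPv-caspase-8 fusion driven by the FABP4 promoter, which directs it to fat cells. AP20187, a drug that joins FKBPv domains and so switches on the caspase, was injected, by the protocol, from an age of 6 weeks at 0.4 mg/kg, and the resulting loss of fat is followed by fibrosis. The DMHCA group ate a diet with 0.05% DMHCA, a steroid that activates LXR, a nuclear receptor for oxysterols, equal to about 100 mg/kg, from an age of 8 weeks. The Control label reads "AP20187 Vehicle", which does not say whether these mice got AP20187 with the vehicle of DMHCA or the vehicle of AP20187 alone. The study describes the sequenced tumors as those of mice given AP20187. The tissue was labelled as mammary gland fibrosis, whereas the study describes tumors, and neither source gives the age at collection for each library.

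Expected read counts summed to between 46358654 and 63420620 per library. DMHCA libraries 1 and 3 were nearly alike, with a coefficient of variation between them of 0.0327 against 0.376 to 0.579 for every other pair within a group, and were summed and counted as 1 sample. Over 36 members with a mean of at least 1 TPM in that pair, the ratio of library 1 to library 3 lay between 0.846 and 1.19. The DMHCA group therefore held 2 samples and the Control group 3, and p-values measure only the spread between these samples, which may be technical: the study describes tumors of 3 mice per group, and the labels do not tie the libraries to animals. The epithelial markers Epcam, Krt8, Krt18, Cdh1 and Erbb2 summed to 2705 to 3986 TPM in the Control libraries, 4696 in DMHCA library 2 and 4796 in the pair of DMHCA libraries 1 and 3. Adipocyte markers (Adipoq, Fabp4, Plin1, Lep and Cidec) summed to 123 to 914 TPM in the Control libraries and to 68.8 and 68.7 in the DMHCA samples. Control library 3 was the highest for the summed fibroblast, adipocyte, leukocyte and endothelial markers.

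A group of neighbouring genes can be transcribed together or apart, since most mammalian genes have a promoter of their own and some pairs share 1 start region in opposite directions. The human region 20q13 is known for extra copies in breast tumors, and AURKA, ZNF217 and NCOA3 are among the genes most studied there. DNA copy number was not measured in the data used here, and its part in the levels below was not tested. The listed neighbours have many unrelated roles, among them transcription factors, RNA-binding proteins, transport factors, enzymes and signaling proteins.

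Start regions of 4 members are shown because they stand at the places where the levels of DMHCA library 2 changed or where divergent neighbours were high together. Each runs from 250 bases before to 50 bases after a RefSeq start, on GRCm38.p6. The window of Prex1 is chr2:166713783-166714082 on the minus strand and that of Arfgef2 is chr2:166805331-166805630 on the plus strand, either side of the first step in level. The window of Mocs3 is chr2:168230372-168230671 on the plus strand, which starts next to Dpm1, and that of Aurka is chr2:172370521-172370820 on the minus strand, which starts next to Cstf1. Capitals mark matches on either strand to the letters GGGCGG, to CCAAT or to CTTCCGG, which may overlap.
Prex1: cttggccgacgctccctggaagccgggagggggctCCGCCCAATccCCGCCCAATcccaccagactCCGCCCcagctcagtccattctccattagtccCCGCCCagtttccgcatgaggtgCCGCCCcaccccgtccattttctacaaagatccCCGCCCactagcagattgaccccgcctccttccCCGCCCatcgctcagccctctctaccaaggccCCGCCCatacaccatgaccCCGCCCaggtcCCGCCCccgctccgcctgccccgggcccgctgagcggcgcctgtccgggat
Arfgef2: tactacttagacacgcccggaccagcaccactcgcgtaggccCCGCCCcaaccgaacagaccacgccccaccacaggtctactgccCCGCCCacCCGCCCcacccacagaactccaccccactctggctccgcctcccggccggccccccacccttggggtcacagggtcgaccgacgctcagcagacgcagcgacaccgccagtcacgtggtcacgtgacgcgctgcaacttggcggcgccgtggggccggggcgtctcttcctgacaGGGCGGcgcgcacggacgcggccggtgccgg
Mocs3: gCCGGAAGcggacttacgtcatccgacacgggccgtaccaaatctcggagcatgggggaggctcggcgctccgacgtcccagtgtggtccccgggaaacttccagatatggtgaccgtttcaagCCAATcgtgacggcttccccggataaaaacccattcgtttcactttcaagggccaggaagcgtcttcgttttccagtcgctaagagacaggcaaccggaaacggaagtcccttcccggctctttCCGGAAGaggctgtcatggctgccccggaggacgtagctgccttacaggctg
Aurka: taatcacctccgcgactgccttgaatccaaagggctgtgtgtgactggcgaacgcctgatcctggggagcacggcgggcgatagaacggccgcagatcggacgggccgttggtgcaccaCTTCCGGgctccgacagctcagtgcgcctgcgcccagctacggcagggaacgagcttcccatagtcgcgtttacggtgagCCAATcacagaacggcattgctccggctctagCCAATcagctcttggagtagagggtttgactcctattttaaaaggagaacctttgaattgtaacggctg

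Of the members, 29 had such a window, 37 windows in all. GGGCGG, the core letters of an Sp1 site, was in 24 of the 37 windows, against 35.7% of all 32851 RefSeq windows of the same length. CCAAT was in 12 of the 37, against 37.4% of all windows, and CTTCCGG, letters of an ETS site, in 13 of the 37, against 8.86%. Windows of similar CG content, or of genes at similar levels, were not compared, so nothing about the region is read from these shares. A direct repeat of GGTCA with 5 bases between its copies, letters of the repeat that LXR can bind, was in 0 of the 37 windows and in 0.0761% of all windows, which says only whether these letters stood in these bases. The windows of Prex1 and Arfgef2 held 24 and 35 CG dinucleotides, and those of Mocs3 and Aurka 26 and 24, against a median of 7 over all windows. Prex1, whose level in DMHCA library 2 lay among the Controls, thus had 10 GGGCGG matches, and Arfgef2, which was far above them there, had 4.

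Levels are given as normalized counts, which are expected counts scaled by TMM to 1 common library size, and a fold is DMHCA library 2 over the mean of the 3 Control libraries unless another is named. DMHCA library 2 was the highest of the 5 samples for 21 of the 41 members, beside 22.0% of all 19427 genes tested. It was at least 2-fold above each of the other 4 samples for 20 members, beside 1.45% of all genes tested. These values chose the list, so nothing is read from the difference between those shares. DMHCA libraries 1 and 3 were the highest sample for 8 members, beside 19.5% of all genes tested, and both DMHCA samples lay above all 3 Control libraries for 23, beside 13.8%. Sall4 and Dok5 were too low to be tested, with at most 5.19 and 12.5 normalized counts in any sample. In tissue RNA, fewer cells of a type and less RNA per cell cannot be told apart.

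The high levels were not spread over the whole list. They lay in 2 separate stretches, and the members before, between and after these, except Cyp24a1, stayed within about 1.5-fold of the Control mean in DMHCA library 2 or below it. The borders of the stretches were drawn after the values had been seen. From Arfgef2 to Mocs3 (chromosome 2, 166805588 to 168232594 on GRCm38) DMHCA library 2 was the highest sample for 16 of 18 members and at least 2-fold above each other sample for 15. From Fam210b to Tfap2c (172345565 to 172558622) it was at least 2-fold above each other sample for 5 of 5. In the remaining stretches, with 3, 11 and 4 members, it was the highest for 0 members by normalized counts. By the deposited TPM it was the highest there for Sulf2, Zfp217, Rae1 and Sall4.

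**Figure D1:**
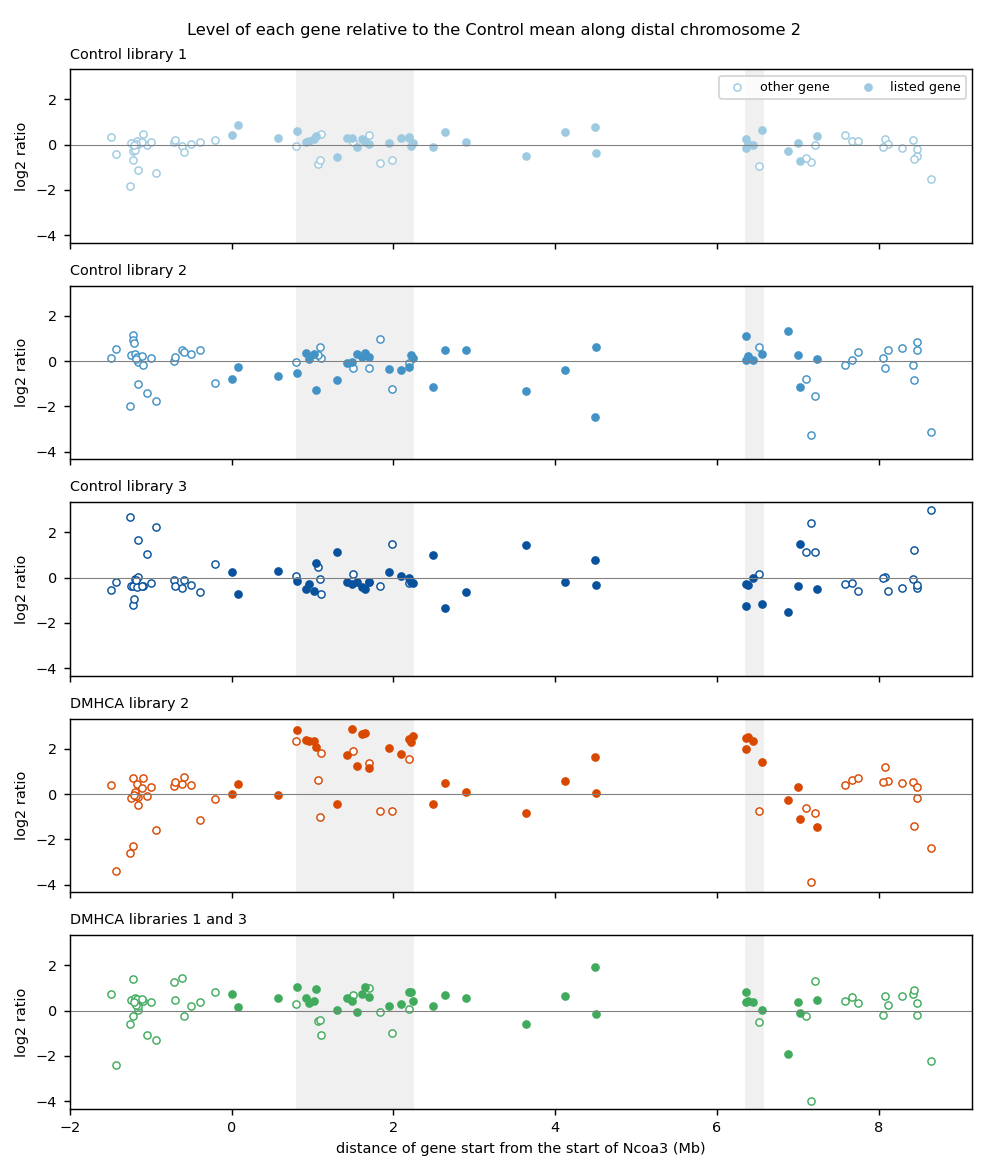
Each point is a gene tested with a Control mean of at least 100 normalized counts. It is placed by the distance of its lower coordinate from that of Ncoa3 in Mb. Its level is log2 over the Control mean (for a Control library, over the mean of the other Controls). Filled points are listed genes, open points are other genes, and grey bands mark the stretches from Arfgef2 to Mocs3 and from Fam210b to Tfap2c. Only in the DMHCA library 2 panel do most filled points inside the bands stand near 2. Over all members tested, the median there was 2.31 in the first stretch and 2.36 in the second.

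The proximal end was at the Control level. Ncoa3, a coactivator of nuclear receptors, was counted at 5166, 2903 and 4791 in Control libraries 1, 2 and 3, at 4231 in DMHCA library 2 and at 7130.3 in the pair of DMHCA libraries 1 and 3. DMHCA library 2 thus lay within the Control range, and the pair lay above it. Sulf2, which removes sulfate from heparan sulfate chains and overlaps the end of Ncoa3 on the opposite strand, had 23204, 14431 and 11234 in the Controls, 21931 in DMHCA library 2 and 17879.6 in the pair. Prex1, an activator of the GTPase Rac, had 2597, 1651 and 2613 in the Controls, 2238 in DMHCA library 2 and 3397 in the pair. The folds of the 3 genes ran from 0.978 to 1.35.

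The level changed within 78.7 kb. Prex1, on the minus strand, reaches up to 166713832 and had a fold of 0.978. The next gene tested, Trp53rkb, which encodes a small kinase and is no member, starts at 166792531 and had a fold of 5.54, with 254 to 271 normalized counts in the Controls, 1444 in DMHCA library 2 and 323 in the pair. Trp53rka, its near copy proximal to Ncoa3, had a fold of 1.31, and the division of reads between such copies is uncertain. Trp53rkb was named after its values had been seen.

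Arfgef2 (ENSMUSG00000074582), an exchange factor for the ARF GTPases of the Golgi, opened the first stretch. It had 3835, 2254 and 2756 normalized counts in the Controls, 21038 in DMHCA library 2 and 6052 in the pair. Its fold was 7.14, and the pair was 2.05-fold above the Control mean, so both DMHCA samples lay above every Control library. Cse1l, the export receptor for importin alpha, followed with 6363, 6962 and 4634 in the Controls, 31320.3 in DMHCA library 2 and 8701 in the pair, a fold of 5.23. For both genes DMHCA library 2 stood more than 3 times above the next sample.

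Neighbours with roles in RNA came next. Stau1, which binds double-stranded RNA and takes part in mRNA transport and decay, had 5901, 5711 and 4696 in the Controls, 27369.8 in DMHCA library 2 and 6913 in the pair. Ddx27, a helicase of ribosome assembly, had 3325, 3414 and 2239.6, then 15222 and 4051. For both genes DMHCA library 2 stood far above the other samples, and it was 5.03-fold and 5.09-fold above the Control means. Znfx1, an RNA helicase that takes part in antiviral responses, was more variable, with 4456, 1928 and 4937 in the Controls, 16106 in DMHCA library 2 and 7368 in the pair. Zfas1, a non-coding RNA that starts next to Znfx1 on the opposite strand and overlaps it, had a fold of 1.55, against 4.27 for Znfx1.

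Ptgis and B4galt5 were the 2 members of the stretch in which DMHCA library 2 was not the highest. Ptgis, the prostacyclin synthase, was low throughout, with 87.7, 55.8 and 143 normalized counts in the Controls, 104 in DMHCA library 2 and 132 in the pair. B4galt5, a galactosyltransferase of glycolipid synthesis, had 662, 558 and 1391 in the Controls, 625 in DMHCA library 2 and 891 in the pair, and was highest in Control library 3. Both lay between members with folds above 3, and both were within the Control range in DMHCA library 2.

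Distal to B4galt5 the high levels resumed. Slc9a8, a sodium-proton exchanger of the Golgi, had 2750.1, 2309 and 2186 in the Controls, 7928 in DMHCA library 2 and 3541 in the pair. Spata2, which joins the deubiquitinase CYLD to the linear ubiquitin ligase, had the highest fold of all members tested, 7.42, with 1353, 1169 and 1016 in the Controls, 8751 in DMHCA library 2 and 1587 in the pair. Its level in the pair was near the highest Control, so the 2 DMHCA samples differed more for Spata2 than for Arfgef2. Rnf114, a ubiquitin ligase gene that overlaps the start of Spata2 on the opposite strand and is no member, had 7419, 6013 and 7609 in the Controls, 26134 in DMHCA library 2 and 11371 in the pair.

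Snai1, a repressor of epithelial genes, reached 767 normalized counts in DMHCA library 2, against 287, 353 and 276 in the Controls and 286 in the pair. Only DMHCA library 2 stood apart for Snai1, and the pair was at the Control level. Ube2v1, a partner of the ubiquitin-conjugating enzyme Ubc13, had 8171, 7942 and 5987 in the Controls, 45670.5 in DMHCA library 2 and 12232 in the pair. Tmem189, the desaturase that makes plasmalogens, had 5631, 6338 and 4207, then 35000.1 and 11046. Their folds were 6.20 and 6.49, and both DMHCA samples lay above every Control library. The annotated readthrough gene Gm20431 shares exons with both on the same strand, so the division of reads between the 3 is uncertain. Gm20431 itself, named after its values had been seen, was listed at 0 in Control library 3 and had 2518 in DMHCA library 2.

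Cebpb, a transcription factor of mammary and fat cell differentiation, had the highest TPM of the list and a smaller fold. Control libraries 1, 2 and 3 held 23133, 24989 and 20885 normalized counts, DMHCA library 2 held 51169 and the pair 35080.5. DMHCA library 2 was 2.22-fold above the Control mean and 1.46-fold above the pair, so Cebpb was the highest in DMHCA library 2 without being 2-fold above every other sample. The starts of Cebpb and Tmem189 overlap on opposite strands.

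The last members of the stretch included 2 signaling genes. Ptpn1, a tyrosine phosphatase that acts on the insulin receptor, had 4371, 3507 and 4710.2 in the Controls, 17449.7 in DMHCA library 2 and 4838 in the pair. Pard6b, a cell polarity protein, had 797, 578 and 724, then 2450.0 and 852. In both genes the pair lay just above the highest Control, and DMHCA library 2 was 4.16-fold and 3.50-fold above the Control mean.

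Adnp, a chromatin-bound homeobox protein, and Dpm1, the catalytic subunit of dolichol phosphate mannose synthase, had folds of 5.48 and 4.94. Adnp held 2107, 1633 and 1827 in the Controls, 10167 in DMHCA library 2 and 3247 in the pair. Dpm1 held 1889, 2211 and 1766, then 9654 and 3473. Both are overlapped on the same strand by Gm20716, whose counts (6066 to 7963 in the Controls, 20276 in DMHCA library 2 and 7176 in the pair) could include reads of either. Mocs3, which activates a sulfur carrier for molybdenum cofactor and tRNA modification, starts 0.031 kb from Dpm1 in the opposite direction. Its counts were 635, 645 and 544 in the Controls, 3745 in DMHCA library 2 and 819 in the pair, a fold of 6.16, and the window printed above for Mocs3 covers the annotated starts of both genes.

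**Figure D2:**
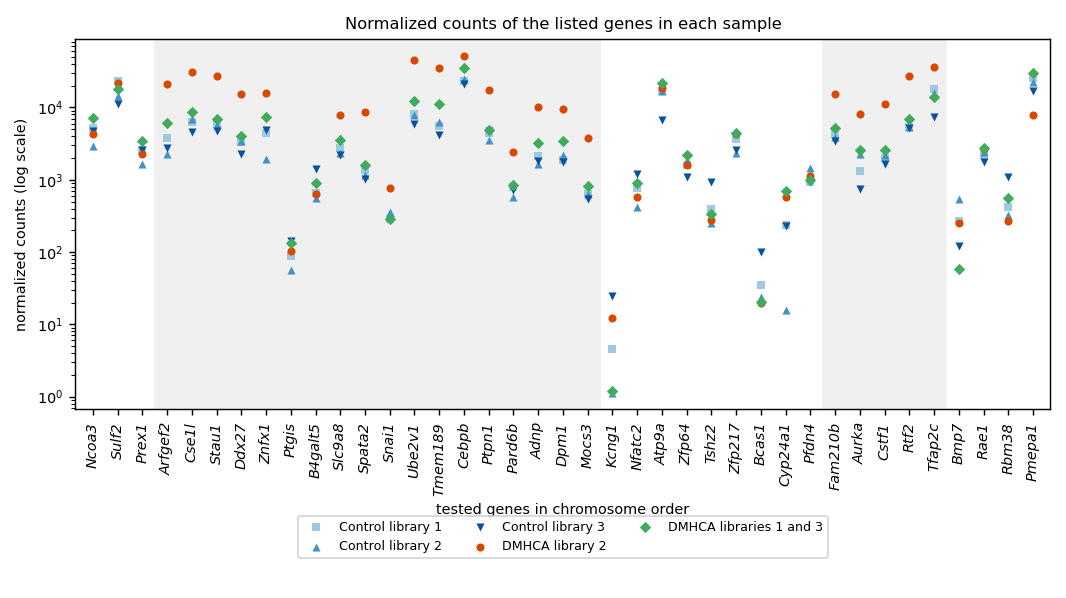
Normalized counts (log scale) of the 39 members tested are plotted in chromosome order, with 1 marker for each of the 5 samples and grey bands for the stretches from Arfgef2 to Mocs3 and from Fam210b to Tfap2c. The DMHCA library 2 marker is the top marker for 21 genes, all inside the bands, and for 0 of the 16 genes outside them.

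Beyond Mocs3 the levels fell back to those of the Controls. Kcng1, a potassium channel subunit that lies next to Mocs3, had at most 24.7 normalized counts in any sample and gives little information. Nfatc2, a calcium-regulated transcription factor of immune cells, has its nearer edge at 168476410, which is 243.8 kb from the end of Mocs3. It had 763, 423 and 1198 in the Controls, 582 in DMHCA library 2 and 909 in the pair. Nfatc2 in DMHCA library 2 thus lay within the Control range, with a fold of 0.732.

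The middle stretch ran on at this level for 2620 kb from Kcng1 to Dok5. Atp9a, a lipid flippase of endosomes, had 17124, 16817 and 6739.6 in the Controls, 18883 in DMHCA library 2 and 22071 in the pair. Zfp217, the mouse counterpart of the zinc finger gene most studied in human 20q13, had 3643, 2360.0 and 2596 in the Controls, 4301 in DMHCA library 2 and 4469 in the pair. For both genes the 2 DMHCA samples lay above all 3 Control libraries, and DMHCA library 2 was below the pair. Pfdn4, a subunit of the prefoldin chaperone, had 919, 1438 and 939 in the Controls, 1139 in DMHCA library 2 and 999.6 in the pair, so that both DMHCA samples were within the Control range.

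Among the other members of the middle stretch, Zfp64 had a fold of 1.07 and was highest in the pair, with 2211 normalized counts. Tshz2, a zinc finger homeobox gene, had 399, 249 and 923 in the Controls, 276 in DMHCA library 2 and 335 in the pair. Bcas1, a gene of myelin-forming cells also found in breast tumors, had 34.6, 23.9 and 99.9, then 19.4 and 20.5. Control library 3 was the highest sample for both, and the fold of Bcas1 was 0.368. Cyp24a1, which inactivates vitamin D, was the only one of the 11 with a fold above 2. It had 233, 15.9 and 232 in the Controls, 569 in DMHCA library 2 and 697 in the pair, so it was high in both DMHCA samples rather than in DMHCA library 2 alone.

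The second stretch was short, at 213 kb, and all 5 of its members were high in DMHCA library 2. Fam210b, a mitochondrial protein of red cell development, had 4339.8, 3959.8 and 3405 in the Controls, 15361 in DMHCA library 2 and 5138 in the pair. Aurka (ENSMUSG00000027496), the mitotic kinase Aurora A, had 1332, 2261 and 736, then 8218 and 2594. The Controls of Aurka differed more among themselves than those of its neighbours, and DMHCA library 2 was 3.17-fold above the pair, the next highest sample. Cstf1, a subunit of the factor that cleaves mRNA ends, starts 0.146 kb from Aurka in the opposite direction and had 1985, 2169.9 and 1667 in the Controls, 11188 in DMHCA library 2 and 2603 in the pair. The folds of Aurka and Cstf1, whose annotated starts both lie in the window printed above for Aurka, were 5.70 and 5.76.

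Rtf2, a factor of replication forks, had Control values that lay close together, at 5321, 5439 and 5282. DMHCA library 2 held 27522 and the pair 6897, a fold of 5.15. Tfap2c, a transcription factor of mammary epithelium, had 17983, 15646 and 7456 in the Controls, 36279.7 in DMHCA library 2 and 13962 in the pair. Its fold of 2.65 was the lowest of the stretch, and the pair lay within the Control range. Cass4, an adhesion signaling gene between Cstf1 and Rtf2 that is no member and was named after its values had been seen, was below the Control mean in DMHCA library 2, with a fold of 0.388 at 21.9 to 110.3 counts in the Controls.

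The distal end was not high in DMHCA library 2. Bmp7, a growth factor of the bone morphogenetic protein family, has its nearer edge 309.4 kb beyond Tfap2c. It had 267, 540.5 and 119 in the Controls, 254 in DMHCA library 2 and 58.4 in the pair. Rae1, an mRNA export and spindle protein, had 2224, 2405 and 1780.3, then 2692 and 2754, so that both DMHCA samples lay above the Controls, with folds of 1.26 and 1.29. Rbm38, an RNA-binding target of p53, had a fold of 0.434 and was highest in Control library 3. Pmepa1, an inhibitor of TGF-beta signaling, had the lowest fold among the members tested. It had 25582, 22325 and 16695 in the Controls, 7879 in DMHCA library 2 and 29892 in the pair, so that the last member of the list was below every other sample in DMHCA library 2.

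**Figure D3:**
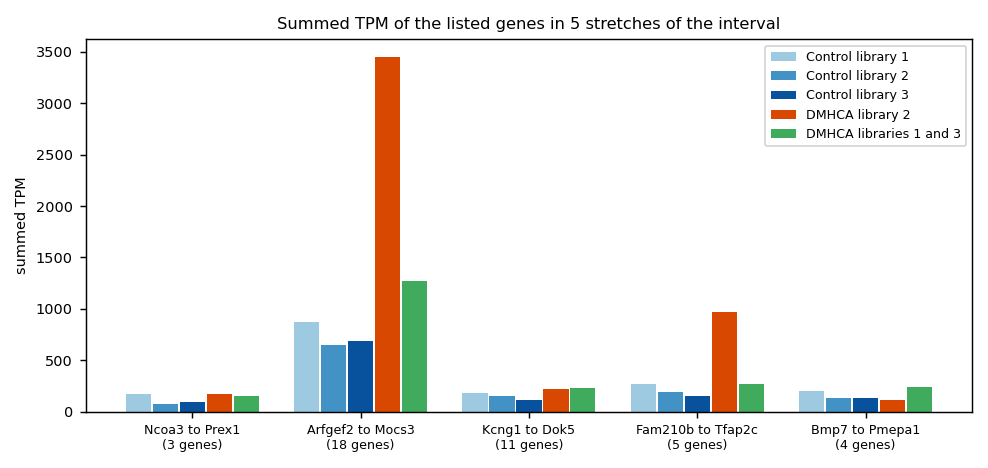
Bars give the summed TPM of the listed genes in 5 stretches of the region for each of the 5 samples, from 0. The DMHCA library 2 bar stands at 3449 from Arfgef2 to Mocs3 and at 971 from Fam210b to Tfap2c, above the other samples, and between 110.0 and 216 in the remaining stretches.

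On the TPM scale, which divides by transcript length, the 18 members from Arfgef2 to Mocs3 summed to 876, 647 and 685 in the Controls, 3449 in DMHCA library 2 and 1269.5 in the pair. The 5 members from Fam210b to Tfap2c summed to 268, 195 and 152 in the Controls, 971 in DMHCA library 2 and 271 in the pair. The median fold of members was 4.99 in the first stretch and 5.15 in the second. Between them, from Kcng1 to Dok5, the sum was 109 to 186 in the Controls, 216 in DMHCA library 2 and 227 in the pair. The 4 flanking members from Bmp7 to Pmepa1 summed to 130 to 199 in the Controls, 110.0 in DMHCA library 2 and 240 in the pair.

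Grouped by role, the members high in DMHCA library 2 came from several groups. It was at least 2-fold above each other sample for 3 of 3 ubiquitin and replication genes, 4 of 6 RNA genes, 3 of 5 transport genes, 3 of 6 metabolic enzymes, 3 of 10 transcription genes and 2 of 7 signaling genes. Aurka, of 2 genes of mitosis and folding, and Fam210b were the others. Among the RNA genes, Stau1, Ddx27, Znfx1 and Cstf1 were high, and Rae1 and Rbm38, both distal to Tfap2c, had folds of 1.26 and 0.434. Tfap2c and Snai1 were at least 2-fold above every other sample, whereas Ncoa3, Nfatc2, Zfp64, Tshz2 and Zfp217 had folds below those of both, from 0.526 for Tshz2 upward.

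Genes of the same families on other parts of the genome are given beside the members. The members were chosen for their levels in DMHCA library 2, so the difference between both sets is set by that choice and nothing is read from it. Of 33 relatives, such as Arfgef1, Ube2v2 and Aurkb, DMHCA library 2 was the highest sample for 11 and at least 2-fold above each other sample for 0, against 20 of the 41 members. Their median fold was 1.14, and that of the members tested was 2.65. Arfgef1 had 8195, 7445 and 6048 normalized counts in the Controls, 8211 in DMHCA library 2 and 6309.5 in the pair, where Arfgef2 was 7.14-fold above the Controls. Ube2v2 had 2404, 3199.7 and 2622, then 2312 and 1932. Tfap2a had 3467, 3222 and 2474, then 4405 and 3494, and Dpm2, elsewhere on chromosome 2, had a fold of 0.979. Other relatives lay further from the Controls in DMHCA library 2, with folds of 0.309 for Cebpa and 0.509 for Cebpd, relatives of Cebpb, and of 2.19 for Bmp6, a relative of Bmp7. These 3 were named after their values had been seen.

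**Figure D4:**
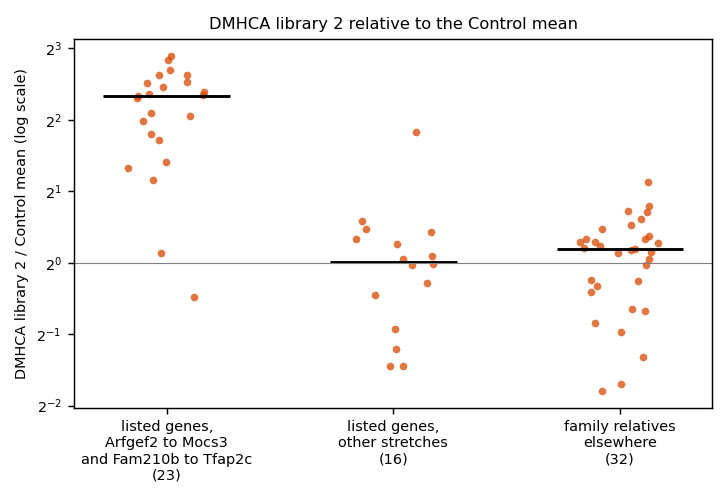
Each point is a gene, placed by DMHCA library 2 over the Control mean (log scale), for 23 listed genes of the 2 high stretches, 16 listed genes of the other stretches and 32 family relatives tested elsewhere, with a line at each median. The relatives sit around a median of 1.14-fold. The genes of the 2 stretches share 1 line, and taken apart their medians were 4.99 and 5.15.

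Cell cycle genes, which vary with growth, were given beside Aurka. Over 20 of them, such as Pcna, Ccnd1, Cdk1 and Top2a, DMHCA library 2 was the highest for 8 and at least 2-fold above each other sample for 0. Their summed TPM was 940, 1036 and 506 in the Controls, 1536 in DMHCA library 2 and 1424 in the pair. The 2 DMHCA samples were alike in this sum, and Aurka differed 3.17-fold between them. Aurka is a member chosen for its level in DMHCA library 2, so nothing is read from this contrast. The part of growth in its level was not tested. Aurkb, its close relative, was also named after its values had been seen, and had 994, 1565 and 533 in the Controls, 1709 in DMHCA library 2 and 1679 in the pair.

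Some other genes of the 2 stretches were also high in DMHCA library 2, and others were not. Of 62 genes tested between Ncoa3 and Pmepa1, listed or not, DMHCA library 2 was at least 2-fold above each other sample for 29, beside 282 of 19427 in all, of which 51 lay on chromosome 2. Among protein-coding genes with a Control mean of at least 100 normalized counts, it was so for 24 of 44 in the region. Over all such genes it was so for 151 of 13140 (1.15%). The counts in the region include the members, which were chosen for their levels, so nothing is read from these shares. Without the members, it was so for 4 of 8 such genes, among them Gm20716, which overlaps Adnp and Dpm1. Zbp1, a sensor of nucleic acids distal to Rbm38, had 2722, 1197 and 4347 in the Controls, 1542 in DMHCA library 2 and 6774 in the pair. Gm11472 and Gm14303, pseudogenes inside the first and the second stretch, had folds of 0.476 and 0.590. Pck1, a fat and liver enzyme gene distal to Rbm38 and named after its values had been seen, had 64.9 to 1403 in the Controls and 12.1 and 9.63 in the DMHCA samples, where the adipocyte markers were also low.

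The genes just outside the list had folds of at most 1.66, and several were low in DMHCA library 2. On the proximal side, Trp53rka, Slc2a10, Eya2, Zmynd8 and Gm22692 had folds from 0.213 to 1.31. Eya2, a transcriptional coactivator, had 2949, 3453 and 2028 normalized counts in the Controls, 1266 in DMHCA library 2 and 3697 in the pair, so DMHCA library 2 was below every other sample. On the distal side, Pmepa1os, Ppp4r1l-ps, Rab22a, Vapb and Vamp7-ps had folds from 0.740 to 1.66. Rab22a had 3878, 3709.5 and 3247 in the Controls and 5574 and 5558 in the DMHCA samples, which were alike.

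Over the rest of the chromosome the median level was near that of the Controls in DMHCA library 2, although single genes and a group of zinc finger genes distal to Pmepa1 were high. Over the 1402 genes of chromosome 2 tested outside the region, the median log2 level over the Control mean was 0.03 in DMHCA library 2 and 0.23 in the pair, against 1.40 and 0.42 over the 39 members tested. Runs of 25 consecutive genes were formed along every chromosome, 18905 in all. The list was proposed with the levels of DMHCA library 2 in view, so nothing is read from how many runs touched the region. In DMHCA library 2 the median log2 level was above 1 in 31 runs, and all 31 touched the region, the highest being 1.70 from Ncoa3 to Tmem189. In the pair and in Control libraries 1 and 2 there were 0 such runs. Control library 3 had 106, of which 0 touched the region, the highest over immunoglobulin kappa genes on chromosome 6. Runs of 7 genes with a Control mean of at least 100 normalized counts, 14143 in all, changed both the length and the genes and were chosen after seeing the data. DMHCA library 2 had 40 such runs above 1, of which 32 touched the region, and Control library 3 had 238, of which 4 did. The pair had 49, Control library 2 had 14 and Control library 1 had 2, of which 0 touched the region, and the highest of the pair was 1.34, from Lrrc26 to Entpd2 elsewhere on chromosome 2.

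**Figure D5:**
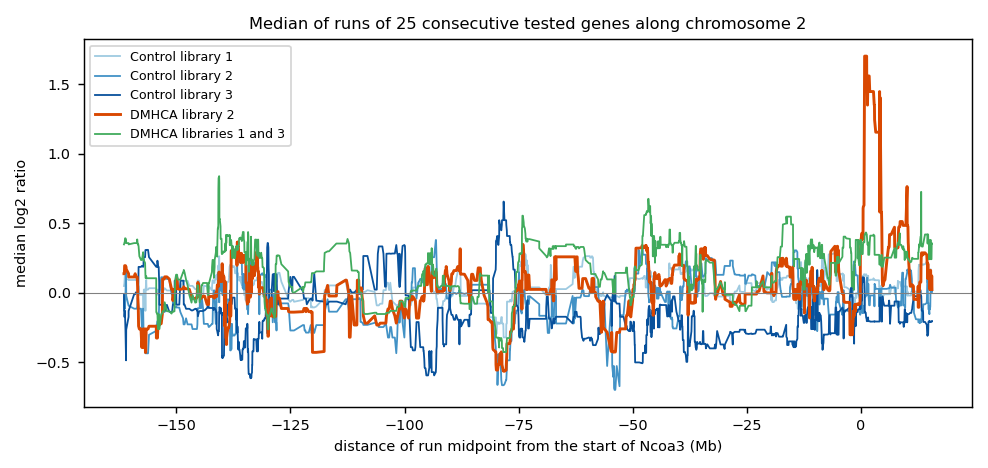
Lines give the median log2 level of 25 consecutive genes along chromosome 2 for each of the 5 samples, over the Control mean (for a Control library, over the mean of the other Controls), by the distance of the run from the start of Ncoa3 in Mb. The DMHCA library 2 line passes 1 only near 0 Mb and reaches 1.70, and the other lines stay below 1 along the chromosome.

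DMHCA libraries 1 and 3 were moderately above the Controls over the members. Their median log2 level over the Control mean was 0.42, beside -0.07 over all genes tested and 0.23 over chromosome 2. In the first stretch the median was 0.49 and in the second 0.39, against 2.31 and 2.36 in DMHCA library 2. The pair was above all 3 Control libraries for Arfgef2, Tmem189, Znfx1 and Dpm1, among others, and at or below the Control mean for Snai1, Bmp7 and Pfdn4.

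In the comparison of all DMHCA with all Control samples by edgeR's quasi-likelihood test, 0 of 19427 genes had a Benjamini-Hochberg adjusted p under 0.05 (0%), the smallest being 0.644, and 1478 had an unadjusted p under 0.05 (7.61%). DESeq2 on the same 5 samples called 265 genes. The fitted log2 fold change of the members tested had a median of 0.91, beside -0.03 over all genes tested. It was 2.20 (standard error 0.53) for Arfgef2, 2.13 (0.63) for Spata2 and 1.90 (0.61) for Aurka. Without DMHCA library 2, which leaves 1 DMHCA sample, the median over members was 0.47, and the values were 1.08 for Arfgef2, 0.47 for Spata2 and 0.88 for Aurka. The group means thus rested mainly on 1 library for these genes, and the part of cell composition or any other property of that library in their levels was not tested.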

How the data were processed

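RNA sequencing of 3 Control and 3 DMHCA libraries was analysed. The authors checked reads with FastQC 0.11.9, trimmed them with cutadapt 2.9 and counted them with RSEM 1.3.1 on a Bowtie2 2.4.1 index of mm10 (GRCm38), per the labels and the study's methods; whether strand was used is not given in the sources used here. The authors deposited expected counts, which are RSEM's estimates without normalization, and 19.6% to 23.5% per library were not whole. The deposited TPM values are scaled by length and depth and were used for levels between genes. The deposited FPKM values were not used.

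After rounding of the expected counts and summing of DMHCA libraries 1 and 3, edgeR 4.0.16 in R 4.3.3 compared 2 DMHCA with 3 Control samples (TMM, filterByExpr at its minimum count, 10, and minimum total, 15, quasi-likelihood F-test, Benjamini-Hochberg adjustment over 19427 genes). The pair was summed because its biological coefficient of variation was under 0.1 and exceeded 5-fold by each of the other within-group pairs. Chi-square tests (p under 0.05) separated them for 18.1% of genes, and other pairs for 82.1% to 87.8%. DESeq2 1.42.0 served as an alternative. Log2 levels use CPM computed from these counts with 0.5 added. Coordinates are those of GENCODE M21 (99.6% of genes matched), and start regions are from RefSeq. Pandas 2.3.3, numpy 2.4.6 and matplotlib 3.10.9 were used in Python 3.11.15, and the fits were tested on simulated data.

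All members could be named. Genes that are no members were named if they were among the 5 tested genes outside each end, the 6 other genes of the region or the 6 genes of each list with the highest mean TPM, except where the text says otherwise. The members, lists and tests were chosen with earlier results of these data known.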

Additional observations from a re-analysis of the deposited data

How the results depend on the processing

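The number of genes with an adjusted p under 0.05 was 0 with edgeR, 16 without a filter on low counts, and, with DESeq2, 265 on the 5 samples and 886 on 6 libraries. It was 0 under each other alternative, and the cause of the difference was not tested. Among genes with a Control mean of at least 100 normalized counts, the median log2 fold change over the members rose from 0.91 to 1.19, and the median log2 level of DMHCA library 2 from 1.40 to 1.67. With each library left out in turn, the median log2 fold change lay between 0.47, without DMHCA library 2, and 1.11, without Control library 1. The median log2 level of DMHCA library 2 lay between 1.35 and 1.63 in this way, the highest without Control library 1, and that of DMHCA libraries 1 and 3 between 0.37 and 0.49. DMHCA library 2 was the highest sample for 21 members, for 22 without any 1 of the Control libraries and for 25 on the deposited TPM. The members added on TPM, Sulf2, Zfp217, Rae1 and Sall4, lie outside the 2 stretches. It was at least 3-fold above each other sample for 13 members and at least 1.5-fold for 20, thresholds chosen after seeing the data. Of 462 pairs of a member and an alternative, 25 moved by more than the spread between samples, 22 of them without DMHCA library 2, where the lone DMHCA sample is assumed to vary like the Controls. Whether the replicate numbers pair the samples could not be decided, because DMHCA libraries 1 and 3 are nearly alike. Same-numbered libraries correlated at -0.0987, 0.346 and 0.381 in their deviations, and Control library 1 correlated best with DMHCA library 2 (0.115). With the replicate number as a block, edgeR called 0 genes (3207 at an unadjusted p under 0.05) and the median over members was 0.77. Low counts limit what Kcng1, Sall4 and Dok5 can show.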

Other observations

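Some genes of chromosome 2 outside the listed region were also high in DMHCA library 2. Tox2, a transcription factor gene that lies proximal to Ncoa3 (163203125 to 163324170 on GRCm38), had a Control mean of 743 normalized counts and was 7.10-fold higher in DMHCA library 2. Plcb4, a phospholipase gene (135659011 to 136014593), was 5.59-fold higher from a Control mean of 2117, and Ralgapa2, a GTPase activator gene (146239879 to 146512344), was 4.07-fold higher from 1308. Genes next to each of these were not examined one by one, and these 3 were named after their values had been seen. Distal to Pmepa1, from 175372436 to 176811223, 6 zinc finger or related predicted genes were each at least 2-fold above every other sample in DMHCA library 2. They were Zfp968 (4.43-fold over the Control mean), Zfp965 (9.34-fold), Zfp966 (3.85-fold), Gm14435 (2.86-fold), Zfp973 (13.6-fold) and Gm14295 (4.30-fold), also named after their values had been seen. Their Control means were low, from 11.7 to 215 normalized counts, and the division of reads within this family of similar genes is uncertain.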
